A study of Rattus norvegicus with 6 samples.

Results

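The genes described here encode chemosensory receptors: type 2 vomeronasal receptors (V2Rs, symbols Vom2r and Vmn2r), bitter taste receptors (Tas2r), the sweet and umami taste receptors (Tas1r) and trace amine-associated receptors (Taar). They were taken as the entries whose gene symbol matches those families in the lists of genes with a peak of trimethylated lysine 27 of histone H3 (H3K27me3). The rule found 88 of the 22427 genes listed in any library, namely 53 V2Rs, 25 Tas2r, 7 Taar and 3 Tas1r genes. Membership rests on the symbol alone, but a gene that no library lists cannot be a member.

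The lists come from chromatin immunoprecipitation and sequencing of primary heart muscle cells of newborn Sprague Dawley rats. 2 libraries (α-KG 1 and α-KG 2) are from cells given 5 mM α-ketoglutarate (α-KG), and 2 (control 1 and control 2) are from cells given the PBS vehicle, in each case for 24 h in DMEM with serum. 2 input samples were not analysed here. The animals' sex and number, pooling, and whether replicates were separate cultures are not stated, so p-values measure only the spread between these libraries, which may be technical. Each list says that a gene had a peak and gives neither its height nor its position, so the read depth is unknown, and absence from a list can also mean that a peak fell below detection. α-KG 1 listed 18120 genes, α-KG 2 19181, control 1 17245 and control 2 18442. Of 9 heart muscle marker genes, Tnnt2, Actc1, Actn2 and Pln were listed in all 4 libraries and Myh6 in none, while Ryr2 was listed in both controls alone, Myh7 in α-KG 2 alone, Tnni3 in α-KG 1 alone and Nppa in control 2 alone. In all 4 libraries were 3 of 5 marker genes of olfactory or vomeronasal neurons, 1 of 5 of taste cells and 3 of 5 of fibroblasts. These totals also count markers with no entry. A list of peaks does not show which cells were present.

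V2Rs are large receptors with an extracellular ligand-binding domain, carried by sensory neurons in the basal layer of the vomeronasal organ, where they detect peptides and proteins through the G protein subunit Gnao1 and the channel Trpc2. Tas1r proteins are built on the same class C plan and work in pairs: Tas1r1 with Tas1r3 responds to amino acids, and Tas1r2 with Tas1r3 to sugars. Tas2r and Taar genes are small, with a coding region that mostly lies in a single exon. Bitter receptors report toxic compounds on the tongue and signal through gustducin (Gnat3), and most Taar receptors sense volatile amines in the nose. H3K27me3 is placed by Polycomb proteins and marks repressed genes. Transcripts of Tas1r1, Tas1r3 and the neighbouring bitter receptor genes Tas2r143, Tas2r135 and Tas2r126 are also known from rodent heart.

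The receptor genes were marked in most libraries, but their share listed in all 4 was below that of all listed genes. It was 38 of the 88 (43.2%), against 62.8% of all 22427 entries. The V2Rs stood highest, with 30 of 53 (56.6%), followed by 1 of 3 Tas1r genes (33.3%), 6 of 25 Tas2r genes (24.0%) and 1 of 7 Taar genes (14.3%). Another 24 of the 88 were listed in 3 libraries, 12 in 2 and 14 in 1. No test was made of these shares, because genes are not replicates, neighbours can share a peak, and gene length, by which V2R and Tas2r genes differ, was not used here.

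Among the 3 Tas1r genes, Tas1r2 was listed in all 4 libraries, whereas Tas1r1 and Tas1r3 were each listed in α-KG 2 and in no other library. The annotation behind the lists gives Tas1r2 not only its receptor domains but also those of an aldehyde dehydrogenase. In the RefSeq gene order Tas1r2 stands between Aldh4a1, which encodes such an enzyme and had no entry under its own symbol, and the muscle stem cell factor gene Pax7, which was listed in all 4 libraries. Which of these genes the peak lies in cannot be told from the lists. The genes on either side of Tas1r1, Zbtb48 and Nol9, were listed in all 4 libraries, and so was Dvl1, next to Tas1r3. The nearest listed gene on the other side of Tas1r3, Pusl1, was listed in α-KG 2 alone, as Tas1r3 was. These neighbours were picked out after their values were seen. The 250 bases before the RefSeq start of the Tas1r genes are printed because Tas1r2 and Tas1r1 had the most CpG dinucleotides there of all taste receptor genes with a window; promoters marked by Polycomb are often rich in CpG. CpG is in capitals, and the letters are RefSeq's, on assembly GRCr8, which is not the rn6 build named for the lists.
Tas1r2 (GRCr8 chr5:157192549-157192798, plus strand): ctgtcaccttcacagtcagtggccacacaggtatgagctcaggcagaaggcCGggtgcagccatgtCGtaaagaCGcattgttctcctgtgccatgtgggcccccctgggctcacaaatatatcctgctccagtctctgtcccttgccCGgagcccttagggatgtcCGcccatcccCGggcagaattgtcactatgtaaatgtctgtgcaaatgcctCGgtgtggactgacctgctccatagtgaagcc
Tas1r1 (GRCr8 chr5:167828291-167828540, minus strand): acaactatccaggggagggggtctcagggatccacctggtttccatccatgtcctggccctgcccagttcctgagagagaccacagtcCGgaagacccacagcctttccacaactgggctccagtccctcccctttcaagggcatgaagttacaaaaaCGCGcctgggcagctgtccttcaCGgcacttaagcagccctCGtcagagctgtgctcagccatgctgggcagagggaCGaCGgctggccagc
Tas1r3 (GRCr8 chr5:171754994-171755243, minus strand): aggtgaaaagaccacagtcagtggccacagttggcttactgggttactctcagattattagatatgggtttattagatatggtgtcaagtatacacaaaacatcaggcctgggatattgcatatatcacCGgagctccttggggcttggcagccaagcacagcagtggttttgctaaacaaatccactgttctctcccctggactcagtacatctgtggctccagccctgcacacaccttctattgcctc
Tas1r2 and Tas1r1 each had 7 CpG in this window and Tas1r3 had 1, so the gene listed everywhere and a gene listed in 1 library had the same number.

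The receptor genes' listing differed between the α-KG libraries more than between treatments. α-KG 1 listed 69 of the 88 genes and α-KG 2 listed 55, against 69 in control 1 and 69 in control 2. 3 libraries thus had the same number, and α-KG 2 stood 14 below each of them although its list was the longest. The mean was 62.0 ± 9.90 genes under α-KG and 69.0 ± 0 in control (SD, n = 2 each), a difference of -7.00 with p = 1 in an exact two-sided permutation test, where the smallest p that 2 against 2 libraries allow is 0.33. The difference was -14 without α-KG 1 and 0 without α-KG 2. As a share of its whole list, the receptor genes made up 0.381% in α-KG 1 and 0.287% in α-KG 2, against 0.400% in control 1 and 0.374% in control 2 (difference of means -0.0534, exact permutation p = 0.667). That difference was -0.10 without α-KG 1 and -0.00634 without α-KG 2.

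**Figure D1:**
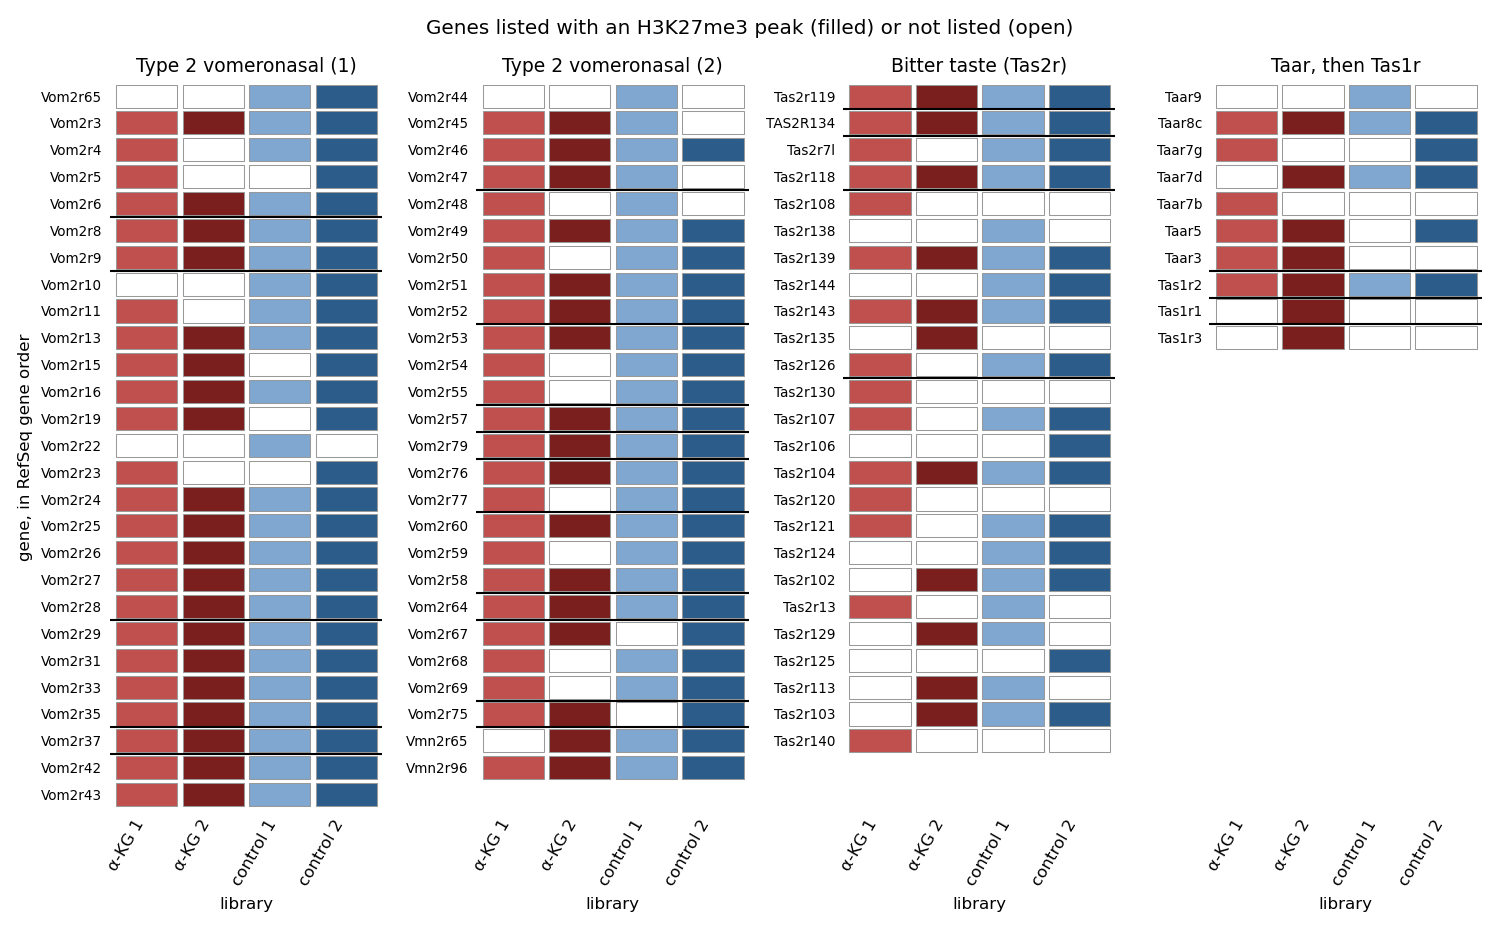
Each row is a gene, in RefSeq gene order within its family, and each column a library; a filled box means listed with an H3K27me3 peak and an open box not listed, and black lines separate runs of neighbouring members. The α-KG 2 column has the most open boxes, 33 of 88 against 19 in each of the others.

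By family, V2R entries numbered 48 in α-KG 1 and 37 in α-KG 2, against 47 in control 1 and 48 in control 2. α-KG 2 alone was low, and the mean difference of -5.00 (exact permutation p = 1) was -10.5 without α-KG 1 and 0.5, of opposite sign, without α-KG 2. Tas2r entries numbered 15 in α-KG 1 and 11 in α-KG 2, against 18 in control 1 and 16 in control 2. This was the 1 family of the 4 in which α-KG 1 and α-KG 2 were each lower than either control, by 4 genes on average (13.0 ± 2.83 against 17 ± 1.41, SD, n = 2 each). The exact permutation p was 0.33, the smallest possible, and 1 after Benjamini-Hochberg adjustment over the 6 values tested in this way. The type 1 vomeronasal and olfactory receptor genes had the same order: α-KG 1 listed 50 and α-KG 2 listed 32 type 1 vomeronasal genes, against 61 in control 1 and 54 in control 2. For olfactory receptor genes these were 391 in α-KG 1 and 238 in α-KG 2, against 441 in control 1 and 412 in control 2. The Tas2r difference was -2 without α-KG 2, -6 without α-KG 1 and -5 and -3 without control 2 and control 1. Taar entries went the other way, with 5 in α-KG 1 and 4 in α-KG 2, against 3 in control 1 and 4 in control 2 (exact permutation p = 0.667). The mean Taar difference of 1 gene was 0.5 without α-KG 1 or without control 1. Tas1r entries numbered 1 in α-KG 1 and 3 in α-KG 2, against 1 in each control. The mean Tas1r difference of 1 gene (exact permutation p = 1) was 2 without α-KG 1 and 0 without α-KG 2.

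**Figure D2:**
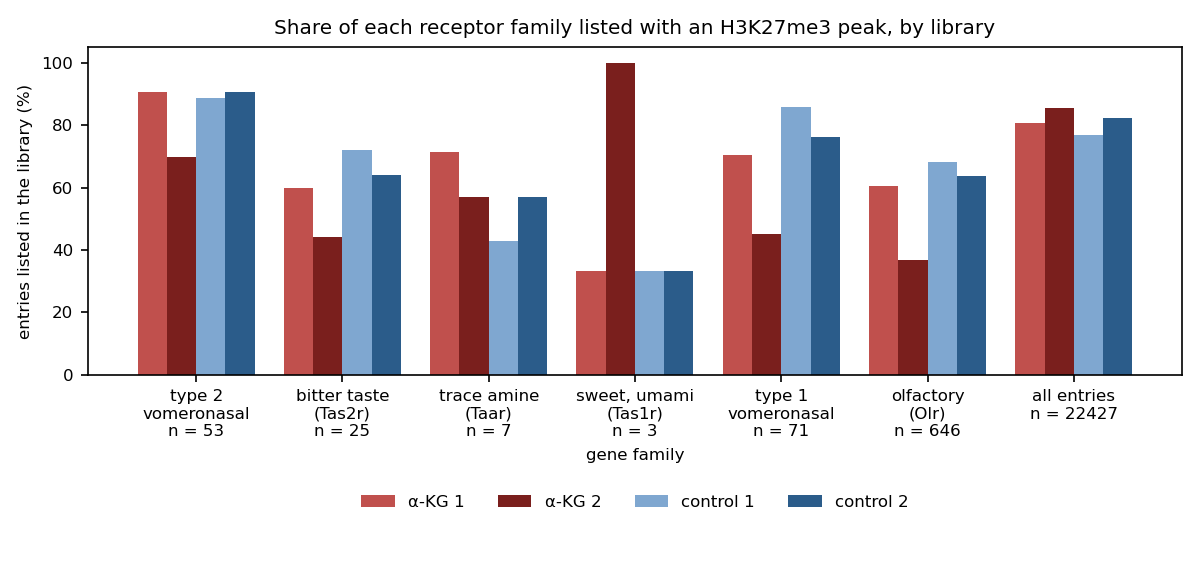
Bars give the percentage of each family's entries that a library lists; n is the number of entries in any library. α-KG 2 is the lowest bar for V2Rs (69.8%), Tas2r (44.0%), type 1 vomeronasal (45.1%) and olfactory receptors (36.8%) and the highest for all entries (85.5%).

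A gene was counted as lost where it had a peak in control 1 and control 2 but in neither α-KG 1 nor α-KG 2, and as gained in the opposite case. Lost were the V2R genes Vom2r10 and Vom2r65 and the bitter receptor genes Tas2r124 and Tas2r144. These are 4 of the 59 receptor genes in both controls (6.78%), against 3.22% of all genes in both controls, and 4 of all 88 (4.55%) against 2.30% of all entries. Split by family, 2 of 42 V2Rs (4.76%) and 2 of 14 Tas2r genes (14.3%) were lost, and 0 of 2 Taar and 0 of 1 Tas1r genes. In the related families the lost share was higher than the 6.78%. It was 9 of 49 type 1 vomeronasal (18.4%) and 66 of 305 olfactory receptor genes (21.6%) in both controls. Gained was Taar3, a trace amine receptor gene, 1 of the 46 receptor genes in both α-KG libraries (2.17% against 4.48% of all such genes) and 1 of 88 (1.14% against 3.25%). With so few genes these shares rest on single listings, and each library moved them. Lost genes numbered 17 without α-KG 1, 8 without α-KG 2, 8 without control 2 and 6 without control 1. Gained genes numbered 4 without α-KG 1, 6 without α-KG 2, 6 without control 2 and 3 without control 1. Reads of near-identical copies, such as the Taar7 genes or neighbouring Tas2r genes, can be split between them, which leaves the state of a single copy uncertain.

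The windows before the start of the gained gene and of a lost gene of each family are printed so that their base composition can be compared with the Tas1r windows, with CpG again in capitals.
Taar3 (GRCr8 chr1:23311805-23312054, minus strand): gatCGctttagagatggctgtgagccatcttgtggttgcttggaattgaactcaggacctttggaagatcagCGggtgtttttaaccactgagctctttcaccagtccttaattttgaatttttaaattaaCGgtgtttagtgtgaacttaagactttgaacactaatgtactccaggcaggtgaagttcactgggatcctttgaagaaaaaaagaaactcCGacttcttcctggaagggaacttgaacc
Tas2r124 (GRCr8 chr4:167761694-167761943, plus strand): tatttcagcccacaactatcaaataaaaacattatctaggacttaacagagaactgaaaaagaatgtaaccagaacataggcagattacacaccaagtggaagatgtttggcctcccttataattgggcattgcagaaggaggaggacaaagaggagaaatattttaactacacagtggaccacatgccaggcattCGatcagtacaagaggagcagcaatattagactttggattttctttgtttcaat
Vom2r10 (GRCr8 chr1:67700583-67700832, plus strand): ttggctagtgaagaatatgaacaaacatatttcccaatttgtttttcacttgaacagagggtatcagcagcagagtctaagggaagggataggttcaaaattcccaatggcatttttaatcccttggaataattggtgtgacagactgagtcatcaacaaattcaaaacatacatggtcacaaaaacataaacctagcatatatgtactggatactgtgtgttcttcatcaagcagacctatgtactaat
Taar3 had 4 CpG, Tas2r124 had 1 and Vom2r10 had none. The other lost genes, Tas2r144 and Vom2r65, had 2 and 0. All 5 were below the median of 6 CpG over 27457 RefSeq windows. This does not set them apart, since the 79 receptor genes with a window had a median of 1 and an upper quartile of 2.50.

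The pattern that held the most receptor genes after a listing in all 4 libraries was a listing in all but α-KG 2. It comprised 9 V2Rs (Vom2r4, Vom2r11, Vom2r50, Vom2r54, Vom2r55, Vom2r59, Vom2r68, Vom2r69 and Vom2r77) and 4 bitter receptor genes (Tas2r7l, Tas2r107, Tas2r121 and Tas2r126). α-KG 2 thus lacked 13 of the 51 receptor genes that the other 3 libraries list (25.5%), against 5.71% of all such entries. The same share was lower for each other library. α-KG 1 lacked 4 of 42 (9.52% against 3.82% of all entries), namely Vmn2r65, Tas2r102, Tas2r103 and Taar7d. Control 1 lacked 5 of 43 (11.6% against 7.25%), namely Vom2r15, Vom2r19, Vom2r67, Vom2r75 and Taar5, and control 2 lacked 2 of 40 (5.00% against 2.63%), Vom2r45 and Vom2r47. The related families showed the same low listing in α-KG 2. It lacked 16 of 39 type 1 vomeronasal receptor genes (41.0%) and 93 of 218 olfactory receptor genes (42.7%) that the other 3 libraries list, both above the 25.5% of the genes described here; this difference was not tested.

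**Figure D3:**
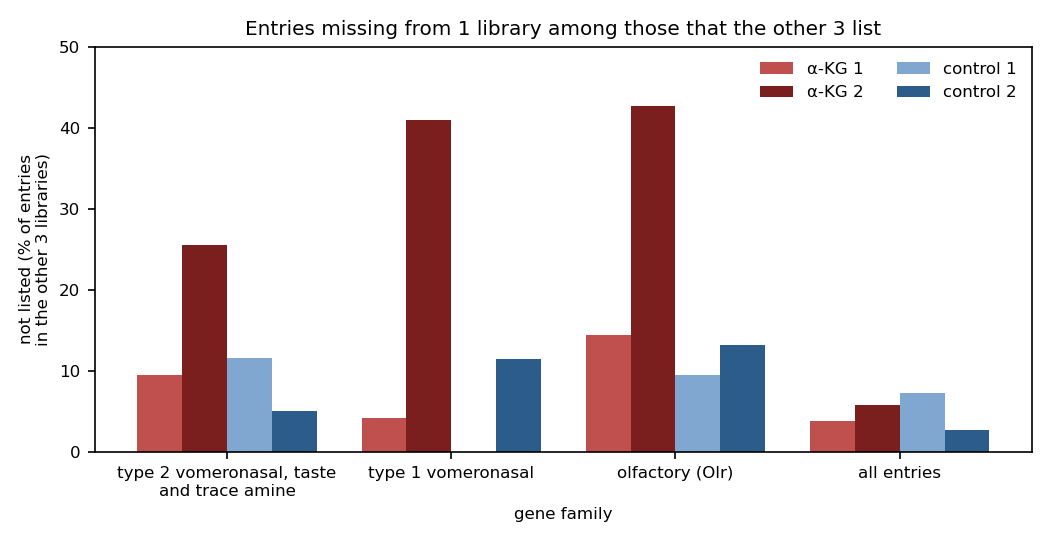
For each family and library, the bar is the percentage not listed in that library among entries listed in all of the other 3. For the V2R, taste and trace amine genes α-KG 2 stands at 25.5% and the other libraries between 5.00% and 11.6%; for all entries the range is 2.63% to 7.25%.

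Genes listed in a single library were mostly bitter receptor genes. α-KG 1 alone listed 5 of the 88 (5.68% against 2.03% of all entries): Tas2r108, Tas2r120, Tas2r130, Tas2r140 and Taar7b. α-KG 2 alone listed 3 (3.41% against 6.96%), which were Tas2r135, Tas1r1 and Tas1r3. Control 1 alone listed Vom2r22, Vom2r44, Tas2r138 and Taar9 (4.55% against 1.73%), and control 2 alone listed Tas2r106 and Tas2r125 (2.27% against 2.27%). In all, 14 of the 88 were in a single library (15.9%), against 13.0% of all entries. Among them were 8 of 25 Tas2r genes (32.0%) and 2 of 53 V2Rs (3.77%). The same share was 31.9% in olfactory and 15.5% in type 1 vomeronasal receptor genes. The remaining genes were in 1 library of each treatment: Vom2r48 and Tas2r13 in α-KG 1 and control 1, Tas2r113 and Tas2r129 in α-KG 2 and control 1, and Vom2r5, Vom2r23 and Taar7g in α-KG 1 and control 2.

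The V2Rs listed in all 4 libraries were Vom2r3, Vom2r6, Vom2r8, Vom2r9, Vom2r13, Vom2r16, Vom2r24 to Vom2r29, Vom2r31, Vom2r33, Vom2r35, Vom2r37, Vom2r42, Vom2r43, Vom2r46, Vom2r49, Vom2r51 to Vom2r53, Vom2r57, Vom2r58, Vom2r60, Vom2r64, Vom2r76, Vom2r79 and Vmn2r96. The Tas2r genes in all 4 were Tas2r104, Tas2r118, Tas2r119, TAS2R134, Tas2r139 and Tas2r143. Of the neighbouring bitter receptor genes named above from rodent heart, Tas2r143 was thus in all 4 libraries, Tas2r126 in all but α-KG 2 and Tas2r135 in α-KG 2 alone. Those named need not be all the bitter receptor genes known from heart. Taar8c was the 1 trace amine receptor gene in all 4. Taar5, which in mouse responds to trimethylamine, was in all but control 1. Taar1, the receptor for trace amines in the brain, had no entry under its symbol, and neither had Taar2, Taar4 or Taar6. Of the protein-coding genes of these families in RefSeq (GRCr8), 51 of 79 V2Rs (64.6%), 25 of 35 Tas2r (71.4%), 7 of 17 Taar (41.2%) and 3 of 3 Tas1r genes had an entry, against 69.7% of all 23154 protein-coding genes.

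Within the large groups of neighbouring bitter receptor genes, few were listed in all 4 libraries. Along the RefSeq order, members separated by at most 100 other genes were taken as a run, a limit set after the data were seen, which gave 25 runs. Genes with no entry were not counted, so the length of a run depends on the listing itself and was not set against it. The largest is the run of 14 bitter receptor genes from Tas2r130 to Tas2r140. α-KG 1 listed 7 of its genes and α-KG 2 listed 5, against 9 in control 1 and 8 in control 2, and only Tas2r104 was in all 4. In the other large bitter run, from Tas2r108 to Tas2r126, α-KG 1 listed 4 of 7 genes and α-KG 2 listed 3, against 5 in control 1 and 4 in control 2. Together 3 of the 21 genes in these runs were in all 4 libraries (14.3%), against 62.8% of all entries. These 21 are most of the 25 Tas2r genes, so their share was not set against that of the family. In the largest V2R run, of 13 genes from Vom2r10 to Vom2r28, 7 were in all 4. The Taar genes form 1 run of 7, in which no adjacent pair of listed genes had the same set of libraries. These are descriptions without a test.

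Few CpG before the start was common to nearly all of the receptor genes, and was also found in the related receptor families. A search for the letters CG, which read the same on both strands, in the 250 bases before the RefSeq start found at least 1 in 57 of the 79 receptor genes with a window (72.2%), against 92.5% of all 27457 windows. The median was 1 CpG in the receptor genes and 13 in the 13371 listed genes with a window. It was also 1 in type 1 vomeronasal and 1 in olfactory receptor genes, of which 61.0% and 59.5% had at least 1 CpG. V2R windows had 0 to 11 CpG (median 1), Tas2r windows 0 to 5 (median 2) and Taar windows 0 to 4 (median 2). Vom2r75, with 11, was the highest, and it was listed in all but control 1. For 66 of the 79 the RefSeq gene begins at an ATG, so that for them the window ends at the start codon and the true promoter may lie elsewhere. Receptor genes listed in all 4 libraries had a median of 1 CpG, as did those in all but α-KG 2, whereas among all listed genes the medians were 15 and 3.

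**Figure D4:**
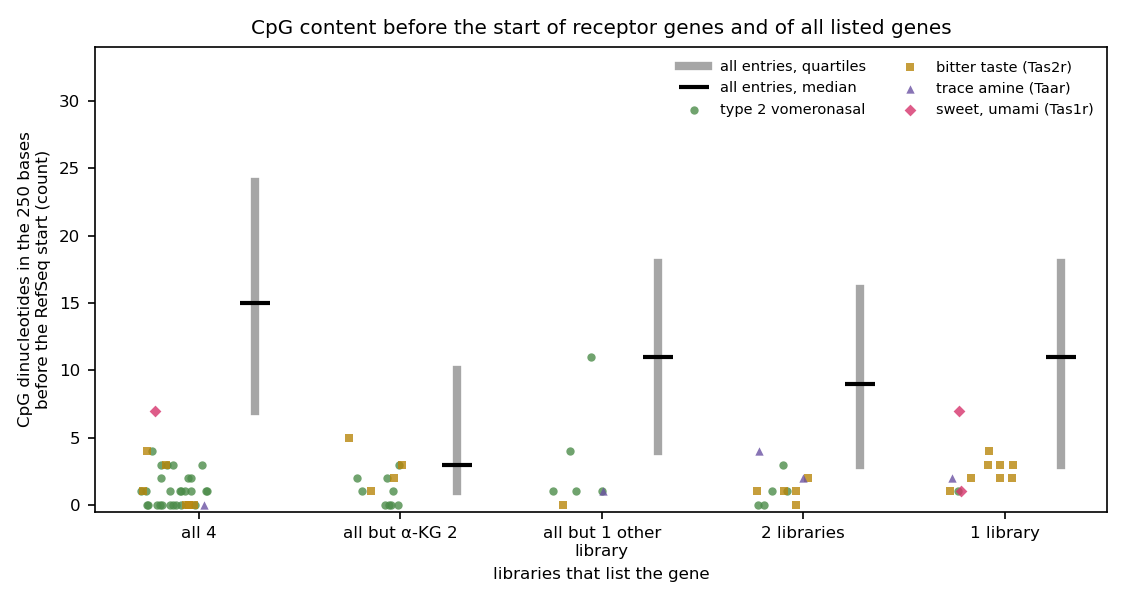
Points are the 79 receptor genes with a window, coloured by family and shifted sideways for visibility; the vertical axis counts CpG in the 250 bases before the RefSeq start, and grey bars with black marks give the quartiles and median of all listed genes. The receptor genes lie between 0 and 11, with a median of 1 where all 4 libraries list them, against 15 for all listed genes.

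CpG content moved with the low listing in α-KG 2 across the whole lists. Among all listed genes with 0, 1 to 4, 5 to 14 and 15 or more CpG, α-KG 2 listed 57.9%, 73.6%, 89.5% and 95.2%. α-KG 1 listed 70.2%, 76.3%, 77.0% and 83.8% of the same groups, while control 1 listed 76.4%, 73.3%, 71.1% and 78.5% and control 2 75.1%, 77.3%, 79.6% and 85.6%. Of genes in the other 3 libraries, α-KG 2 lacked 4 of 18 receptor genes with 0 CpG (22.2%), against 21.7% of all genes with 0. With 1 to 4 CpG it lacked 8 of 28 (28.6%), against 12.4% of all genes. The groups were set after the data were seen, and the part of base composition in the receptor genes' low listing was not tested beyond these values.

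The genes through which these receptors signal had a larger share in all 4 libraries than the receptors; the difference was not tested. Of 32 partner genes 26 had an entry, and 20 of the 26 (76.9%) were in all 4 libraries, against 62.8% of all entries. They include Gnao1 and Gnai2, the G protein subunits of vomeronasal neurons, Gnal and Adcy3 of the olfactory cascade, Itpr3 of taste cells, and Bcl11b and Tfap2e, transcription factors of vomeronasal neurons in mouse. Gustducin (Gnat3) and the channel Trpm4 were gained, 2 of the 26, and 0 of the 26 were lost, against 3.25% gained and 2.30% lost of all entries. Trpc2 and Gnb3 were listed in control 2 alone, Calhm1 and Rtp2 in α-KG 2 alone, and Plcb2, Trpm5, Cnga4, Omp, Ebf1 and Pkd2l1 had no entry. Per library, α-KG 1 listed 22 and α-KG 2 listed 24 of the 26 partners, against 20 in control 1 and 22 in control 2, so that α-KG 2 was the highest here.

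The class C receptors that share the V2R and Tas1r body plan but serve other organs were also listed widely. All 19 had an entry and 15 (78.9%) were in all 4 libraries, among them the GABA receptor genes Gabbr1 and Gabbr2. α-KG 1 listed 17 and α-KG 2 listed 18, against 18 in control 1 and 19 in control 2, and 0 of the 19 were lost or gained, a number too small to set against the 2.30% and 3.25% of all entries. Gprc6a, a receptor for basic amino acids, was in all but α-KG 2, Casr, the calcium-sensing receptor gene, in all but control 1, and Gprc5a and Gpr179 in all but α-KG 1.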

How the data were processed

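H3K27me3 libraries of α-KG-treated and control neonatal rat cardiomyocytes (n = 2 each) were compared, grouped by the labels. The deposited files are other than counts or scores: per the file contents, each line holds an Ensembl ID, a symbol and domain names of a gene with a peak. CASAVA, BWA, MACS2 and the rn6 build are named, per the submitters' processing notes; how peaks were assigned to genes, the thresholds, the versions and the use of the input are not stated in the sources used here. Read depth is therefore unknown, and no interval that needs it was computed.

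Members and lists were chosen with earlier results of these data known. Every member may be named under its listing pattern, and other genes come from lists of signalling partners, class C receptors and cell markers. Per-library numbers were compared by exact two-sided permutation tests with Benjamini-Hochberg adjustment over 6 values (threshold 0.05). RefSeq tables of GRCr8 gave names and gene order for 86 of 88 members and, in 79, the 250 bases before the start, the first listed where a gene had several. In simulated lists, genes given the lost pattern were all counted as lost. This holds by construction and does not test the numbers above. Python 3.11.15, numpy 2.4.6, scipy 1.17.1 and matplotlib 3.10.9 were used. Alternatives tried were distinct symbols, omission of 1 library at a time, a block by replicate number, membership by domain, and a background of entries with a symbol. Steps that need peak scores, positions or widths were not possible with these lists.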

Additional observations from a re-analysis of the deposited data

How the results depend on the processing

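Leaving out 1 library at a time gave differences (α-KG minus control) of -14 to 0 for all receptor genes, -0.10 to -0.00634 for their percentage of the list, -10.5 to 0.5 for V2Rs, -6 to -2 for Tas2r, 0.5 to 1.5 for Taar and 0 to 2 for Tas1r genes. The V2R difference changed sign and the overall and Tas1r differences became 0 when α-KG 2 was omitted, and the cause was not tested. Lost genes ranged from 6 to 17 and gained genes from 3 to 6, since the pattern was then read from 3 libraries. Such a reading can only raise these numbers, and the shares of all entries are given with them above. In each of these settings the exact permutation p was 0.33 or more, and a design this small cannot pass the threshold, so these p-values say nothing about stability.

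The replicate block, which compares libraries of the same number, left every mean difference as it was by construction (-7, -0.0534, -5, -4, 1 and 1, in the order above), and 4 genes were lost and 1 was gained. Within number 1, 14 genes were in the control and not in the α-KG library and 14 the reverse. Within number 2 these were 22 and 8. The same numbers were not counted over all entries, so they are not read as particular to the receptor genes. Control 1 and α-KG 1 listed 78.4% and 78.4% of the 88, against 76.9% and 80.8% of all entries. For control 2 and α-KG 2 these were 78.4% and 62.5%, against 82.2% and 85.5%. The labels do not say that a number marks a shared culture, and deviations of same-numbered libraries over all genes correlated with r = 0.0478. Counting distinct symbols gave the same member counts and a percentage difference of -0.0539. Membership by symbol or domain gave 122 genes and a difference of -9.5 (98 and 76 under α-KG, against 96 and 97 in control). With entries that have a symbol as background, 2.97% were lost and 4.55% gained. A peak's height and the read depth, which set what could be detected, are unknown.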

Other observations

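The lists also hold 31 entries without a symbol that carry the V2R domain name, and they are outside the 88 genes above. α-KG 1 listed 26 of them and α-KG 2 listed 20, against 25 in control 1 and 26 in control 2, so α-KG 2 was again the lowest. In all 4 libraries were 17 of the 31 (54.8%), close to the 56.6% of the named V2Rs. α-KG 2 lacked 5 of the 22 that the other 3 libraries list (22.7%), against 23.1% of the named V2Rs in the same comparison. 1 of the 24 in both controls was lost (4.17%, against 3.22% of all such entries), and 0 of the 17 in both α-KG libraries were gained, against 4.48%. The IDs carry no gene name in the values used here, and they are given as counts without a test.

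The domain name for bitter taste receptors is also carried by 46 named genes outside the 88, most of them type 1 vomeronasal receptor genes. α-KG 1 listed 38 and α-KG 2 listed 25 of the 46, against 41 in control 1 and 36 in control 2.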
